A study of Mus musculus with 16 samples.

Results

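Ccl5, Ccl4 and Xcl1 are 3 chemokine genes, taken by name as 3 of the 9428 genes in a single-cell count table of 3266 T cells from a lymph node. Their distribution over the cells was described, together with the genes that went with each of them and their relation to detection of Klra7, Gzmb and Tcf7. The cells were sorted as CD8+CD44+ from the tumor-draining lymph node of C57BL/6 mice aged 16 weeks that had melanoma-associated vitiligo, 45 days after surgery on the tumor. Vitiligo is an autoimmune loss of pigment that can accompany a response to melanoma. Matched vitiligo skin of the same design entered only through its table of T cell receptor sequences. There was no untreated or tumor-free group, and no source used here says how many mice were pooled. The 16 samples are 4 libraries of 4 sequencing lanes each, so the lymph node is 1 library with no replicate. No difference between cells therefore has a replicate check, cells are not replicates, and all intervals cover counting error only, at 95%.

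Chemokines are small secreted proteins that draw cells carrying the matching receptor. Ccl5 and Ccl4 draw T cells, monocytes and other leukocytes. Ccl5 transcript is kept by resting memory CD8+ T cells and by natural killer (NK) cells, whereas Ccl4 is made mainly upon stimulation. Xcl1 binds Xcr1 on cross-presenting dendritic cells and is made by NK cells and CD8+ T cells. Levels were measured in UMIs, each of which stands for a unique molecule of the gene. The receptor gene Xcr1 and the neighbouring ligand gene Ccl3 were not among the 9428 genes counted, so they could not be analysed here.

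On mm10, in the GENCODE M21 annotation, Ccl5 (ENSMUSG00000035042.2) spans chr11:83525778-83530518 on the minus strand, over 4741 bases. Ccl4 (ENSMUSG00000018930.3) lies on the same chromosome at chr11:83662584-83664683 on the plus strand, over 2100 bases, with 132065 bases between the 2 genes. Xcl1 (ENSMUSG00000026573.7) lies apart from both, at chr1:164931644-164935527 on the minus strand, over 3884 bases. The processed transcript Gm20743 overlaps Xcl1 on the opposite strand. No source used here says whether counting used the strand, so reads of those 2 genes might not be told apart.

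Among the promoters of the 3 genes, the RefSeq table used here (GRCm38.p6) held that of Xcl1. It is shown because Xcl1 was the one of the 3 that was lower, not higher, in cells with Gzmb. The 250 bases before its start (chr1:164935523-164935772, minus strand) are printed 5′ to 3′, with the matches to 3 searched motifs in capitals.
Xcl1 promoter: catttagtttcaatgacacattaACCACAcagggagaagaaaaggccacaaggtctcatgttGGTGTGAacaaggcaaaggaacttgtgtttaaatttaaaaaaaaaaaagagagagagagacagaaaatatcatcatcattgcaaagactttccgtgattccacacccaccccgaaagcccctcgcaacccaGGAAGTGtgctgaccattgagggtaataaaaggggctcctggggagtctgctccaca
The first capitals are the Runx motif TGTGGT read from the other strand, at position -227 from the start, which 14.0% of 32851 promoters of this length hold. The second are the T-box core TCACACC, also read from the other strand, at -188, held by 3.33%. The third are the Ets motif GGAAGTG at -57, held by 8.55%. Both strands were searched, and the 3 matches do not overlap. A first search with a T-box motif longer by 1 base found no match. The letters of AP-1 (TGANTCA, held by 6.75%), NFAT (TGGAAA, held by 18.6%), NF-kB (held by 1.41%) and the TATA box (held by 12.4%, letters TATAAA) were not in this window.

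The table held 14556622 UMIs, at a median of 4423 per cell (range 461 to 12576). The sorted genes were present, with a UMI of Cd3e in 95.3%, Cd8b1 in 96.6%, Cd8a in 83.0% and Cd44 in 26% of cells, and Cd4 was not in the table. Some barcodes may hold more than 1 cell, and 315 (9.64%) carried at least 2 TRB sequences. Results were also computed without them. The lymph node and skin receptor tables had 12 barcodes in common.

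Ccl5 was present in most cells at very different levels. Of the 3266 cells, 589 (18.0%, interval 16.7 to 19.4) had no UMI of Ccl5. Another 1344 (41.2%, 39.5 to 42.9) had 1 to 9 UMIs, and 1333 (40.8%, 39.1 to 42.5) had 10 or more. Counts ran on without a gap across the boundary at 10, with 92 cells at 9 UMIs and 86 cells at 10. The median was 6 UMIs, the 90th percentile 32, and 111 cells had 50 or more. Ccl5 UMIs summed to 39665, or 2725 CPM (the gene's UMIs per 1e+06 UMIs of the cells; interval 2698 to 2752). These UMIs were concentrated: the 1333 cells with 10 or more held 86.9% of them, and the top 327 cells held 41.3%.

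Ccl4 was seen in few cells and mostly as a single molecule. It had a UMI in 365 cells (11.2%, 10.1 to 12.3), of which 263 had 1 UMI and 62 had 2. At the other end 15 cells had 5 or more and 3 had 10 or more. One cell of cluster 3 with 9523 UMIs held 89 of the 660 Ccl4 UMIs, or 13.5%, and the top 10 cells held 25.8%. That cell carried at least 2 TRB sequences. The summed level of Ccl4 was 45.3 CPM (42.0 to 48.9).

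Xcl1 lay between the other 2 genes in the number of cells. It had a UMI in 935 cells (28.6%, 27.1 to 30.2), with 1 UMI in 620 and 2 in 218. At the other end 12 cells had 5 or more UMIs of Xcl1 and 4 had 10 or more. The 3 cells with most Xcl1 had 29, 19 and 17 UMIs, all in cluster 4, and those with 29 and 17 had no Ccl5. Its summed level was 99.7 CPM (94.6 to 105).

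**Figure D1:**
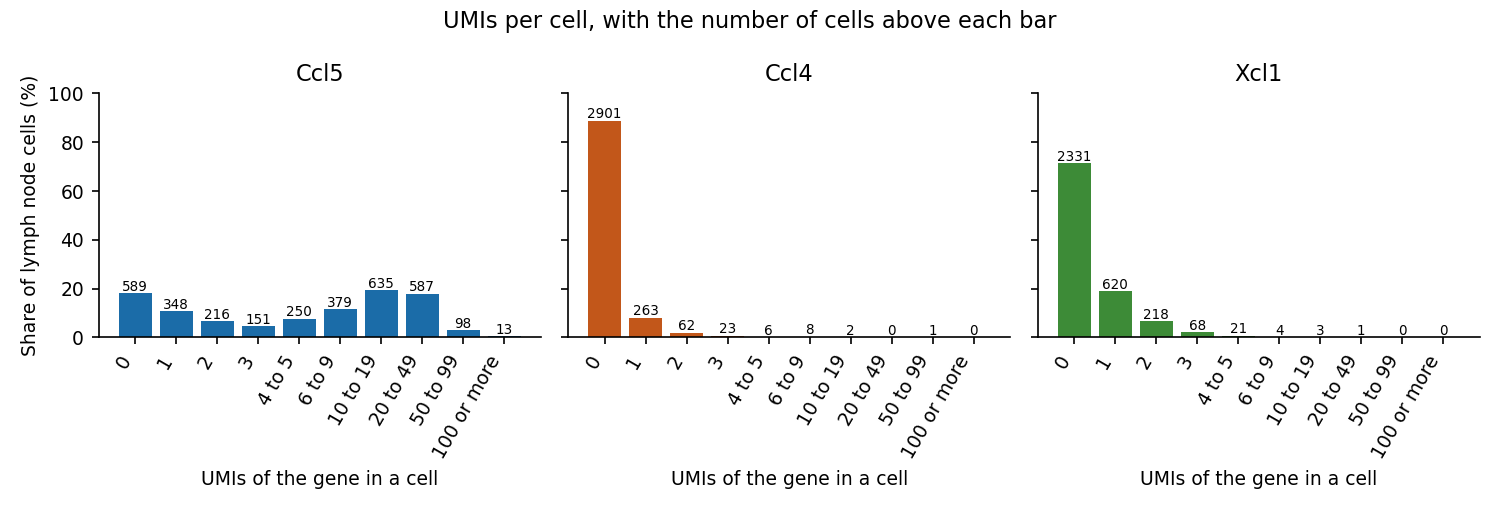
UMIs of Ccl5, Ccl4 and Xcl1 per lymph node cell: the x axis gives bins of UMIs, bar height the share of the 3266 cells in percent, and the number above each bar the cells in it. Ccl5 fills every bin up to 100 or more, while most cells with Ccl4 (263 of 365) or Xcl1 (620 of 935) had 1 UMI.

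Detection followed depth. Over 4 classes of equal size by depth (461 to 3173, 3179 to 4423, 4425 to 5470 and 5471 to 12576 UMIs), Ccl5 had a UMI in 70.4%, 80.7%, 87.1% and 89.7% of cells. Its CPM ran the other way, at 3411, 2860, 2783 and 2399. Xcl1 had a UMI in 9.91%, 26.8%, 32.2% and 45.6%, at 54.6, 103, 91.5 and 117 CPM. The shallowest class was thus the lowest in Xcl1 on both scales. Ccl4 had a UMI in 7.96%, 11%, 10.3% and 15.5%, with no matching order in CPM (60.4, 43.3, 36.2 and 48.4).

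With every cell thinned to 1500 UMIs, which left 3090 cells and left out 176, Ccl5 was at 0 in 28.3% and at 10 or more in 13.5% of cells. Ccl4 then had a UMI in 5.11% and Xcl1 in 11.9%. The classes of Ccl5 are therefore classes at this depth. No cell type known to lack the 3 genes could be used as a background, so the part of free RNA in these shares was not tested. The lowest detection of Ccl5 in any cluster was 52.7% at a median depth of 3083, against 97.8% at 2014 in the highest.

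Ccl5 was seen in 93.2% of cells with Ccl4 and 91.0% of cells with Xcl1, against 82.0% of all cells. The cells with Ccl4 or Xcl1 were deeper (medians of 4762 and 5073 UMIs, against 4423 in all cells). After thinning the shares were 85.4% and 82.1%, against 71.7% of all cells. Ccl5 was the only one of the 3 genes in 1623 cells (49.7%), Ccl5 and Xcl1 were seen together in 714 (21.9%), Ccl5 and Ccl4 in 203 (6.22%) and all 3 in 137 (4.19%). Xcl1 alone was seen in 77 cells, Ccl4 alone in 18, Ccl4 with Xcl1 in 7, and none of the 3 in 487 (14.9%). Ccl4 was seen in 4.24% of cells at 0 Ccl5, 8.93% at 1 to 9 and 16.5% at 10 or more, with median depths of 3546, 4240 and 4841 UMIs. Its level was 16.3, 52.0 and 49 CPM. The middle class holds the cell with 89 Ccl4 UMIs, and without the top cell of each chemokine the levels followed the order of detection, at 16.3, 36.3 and 48.9 CPM. The log2 ratio of Ccl4 between 10 or more and 0 was 1.59 (1.08 to 2.14).

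Xcl1 was seen in 14.3%, 25.1% and 38.5% of the same classes, at 73.1, 91.1 and 115 CPM. Its log2 ratio was 0.66 (0.41 to 0.91), and 0.95 without the top cell of each chemokine, since the cell with 29 Xcl1 UMIs had no Ccl5. After thinning, the order over the Ccl5 classes held for both genes, with Ccl4 in 2.63%, 5.39% and 9.13% and Xcl1 in 7.53%, 13.3% and 15.1% of cells. Ccl4 and Xcl1 were set against each other as well. Xcl1 was seen in 39.5% of cells with Ccl4 (139 CPM, median depth 4762) and in 27.3% of those without (94.1 CPM, 4390), while the level of Ccl4 was 45.5 CPM in cells with Xcl1 and 45.3 CPM in cells without. The last value holds the cell with 89 Ccl4 UMIs: without the top cell of each chemokine the levels were 45.5 and 35.9 CPM, with overlapping intervals (39.8 to 51.9 and 32.2 to 39.9), and without barcodes with 2 or more TRB 48.9 and 34.1 CPM, with intervals apart (42.4 to 56.1 and 30.2 to 38.2). Across the 3266 cells, which share 1 library and differ in depth, Pearson's r on the log scale was 0.15 for Ccl5 with Ccl4, 0.14 for Ccl5 with Xcl1 and 0.07 for Ccl4 with Xcl1. In sparse counts a weak correlation is no finding.

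**Figure D2:**
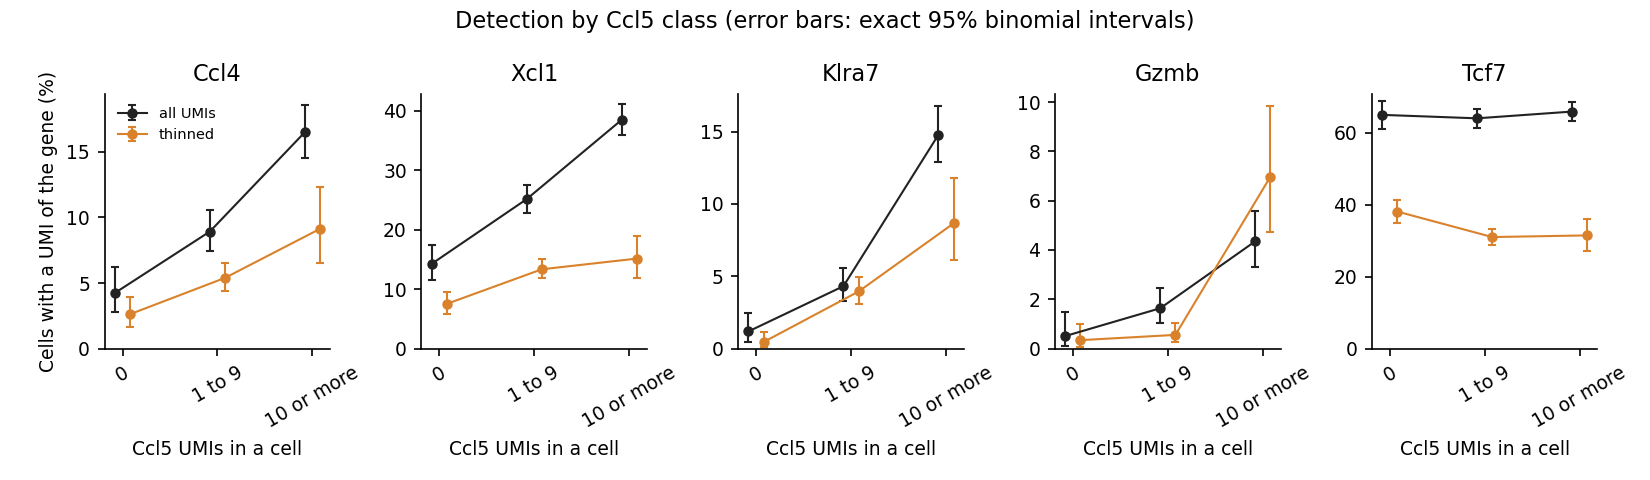
Share of cells (%) with a UMI of Ccl4, Xcl1, Klra7, Gzmb or Tcf7 in cells with 0, 1 to 9 and 10 or more UMIs of Ccl5; black points use all UMIs, orange points cells thinned to 1500 UMIs, and bars are exact 95% binomial intervals. Ccl4 goes from 4.24% to 16.5% and Klra7 from 1.19% to 14.8% over the classes, while Tcf7 stays between 64.1% and 65.9% with all UMIs. After thinning Tcf7 is seen in 38.1%, 31.0% and 31.5% of cells, and its level with all UMIs is 359, 283 and 254 CPM.

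The genes most like Ccl5 across cells were NK receptors and genes of cytotoxic and memory T cells. Likeness was Pearson's r of log-scaled UMIs per cell over the 3266 cells, among 7683 genes, with the value after thinning in brackets. The highest were Klrk1, the activating receptor NKG2D (0.30 [0.22]), S100a6, a calcium-binding protein (0.29 [0.20]), Ctla2a, a protease inhibitor (0.29 [0.19]), and Nkg7, a protein of cytotoxic granules (0.29 [0.18]). Next came Klrc1, a subunit of NKG2 receptors (0.26), Ly6c2 (0.25), Il2rb, the beta chain of the receptors for IL-2 and IL-15 (0.23), Gzmm, a granzyme (0.21), Klre1, a lectin-like receptor (0.21) and Cd7 (0.20). The lowest were Dapl1 (-0.24), Smc4, a condensin subunit (-0.18), Rgcc (-0.18), Igfbp4 (-0.17) and Ctla4, an inhibitory receptor (-0.17). By ranks 9, and after thinning 8, of the 10 highest were the same genes.

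These partners did not all follow Ccl5 over its whole range. Over cells at 0, 1 to 9, 10 to 49 and 50 or more UMIs of Ccl5, Klrk1 was at 9.78, 12.4, 52.8 and 201 CPM and Klrc1 at 3.26, 9.02, 38.8 and 138 CPM. S100a6 was at 202, 228, 432 and 1144 CPM. In contrast Gzmm was at 36.8, 79.1, 156 and 153 CPM, and Il2rb at 211, 285, 370 and 359 CPM, so both were level above 10 UMIs of Ccl5. Ly6c2 was highest in the third class (1426, 2113, 2326 and 1975 CPM). Ctla4 was at 41.4, 21.2, 3.75 and 4.83 CPM, and Dapl1 at 318, 208, 101 and 67.6 CPM.

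Partners of Ccl4 and Xcl1 were weaker. For Ccl4 the highest was Ccl5 itself (0.15 [0.09]), then Klrk1 (0.14 [0.04]), S100a6 (0.12), S100a4 (0.11), Nkg7 (0.11), Rbpj, the DNA-binding protein of Notch signalling (0.10), the galectin Lgals3 (0.10), Id2, a regulator of effector cells (0.09), the cytokine Tnf (0.09) and the chemokine receptor Cxcr6 (0.09). The transcription factors Lef1 (-0.08) and Tcf7 (-0.06) of naive and memory cells were among its 5 lowest, with Peli1, S1pr1 and Dapl1. For Xcl1 the highest were Ctla2a and Ly6c2 (both 0.18 [0.07]), then Ccl5 (0.14), Itm2a (0.14), the histone H2afz (0.13), Nkg7 and Il2rb (both 0.12), Hspe1, Npm3 and Samd3 (0.11 each). Its lowest were the nuclear RNA Malat1 (-0.13), Capg (-0.11), H2-K1 and the integrin chain Itgae (-0.09 each). After thinning, only 3 of the 10 highest partners of Ccl4 and 4 of the 10 of Xcl1 were the same genes.

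**Figure D3:**
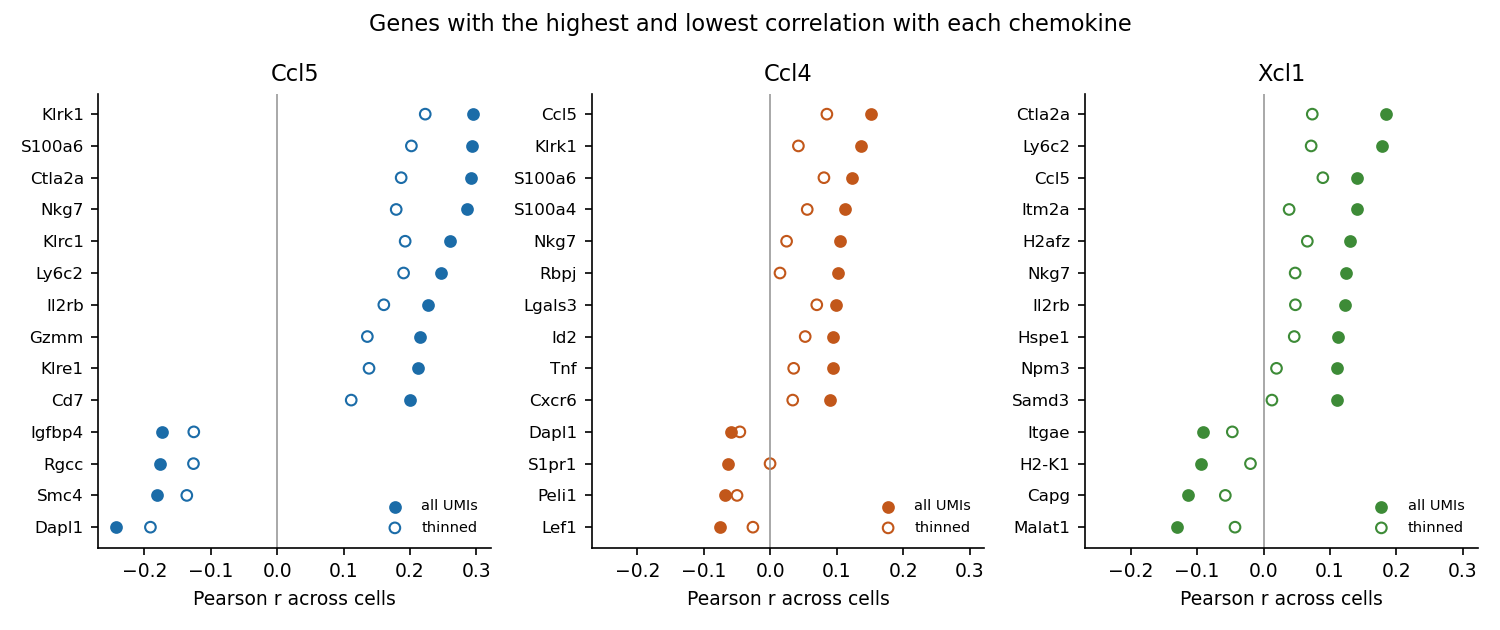
Pearson's r across the 3266 cells between each chemokine and its 10 highest and 4 lowest genes; filled points use all UMIs and open points the 3090 cells thinned to 1500 UMIs. The highest partners of Ccl5 lie between 0.20 and 0.30, and open points lie nearer to 0 for all 3 chemokines.

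Cells with 10 or more UMIs of Ccl5 were set against cells with 0 for every gene, as the log2 ratio of CPM with a prior of 1 CPM on both sides. Of 8302 genes with at least 50 UMIs over both sides, 75 (0.903%) were at least 2-fold higher in the Ccl5-high cells and 105 (1.26%) at least 2-fold lower. Ccl4 was one of the 75. The median over all genes was -0.11 and a median-of-ratios scaling moved values by -0.13, so ratios are to be read against that shift. With that scaling 108 genes were at least 2-fold higher and 78 lower, so which side held more genes depends on the scaling. The zero class drew 36.7% of its 589 cells from cluster 4, whose leading genes are anergy-associated, against 4.50% of the 1333 Ccl5-high cells.

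NK receptors and their adaptors stood highest with Ccl5. Of 19 listed genes 13 were in the table and 11 passed the filter on UMIs, and 9 of the 11 were at least 2-fold higher and 0 lower, with a median log2 ratio of 3.21. Klre1 was at 36.7 against 0.466 CPM (248 against 1 UMI; log2 ratio 4.69, interval 3.81 to 11.61). Klra7, an inhibitory receptor of the Ly49 family, had a log2 ratio of 3.21, and Klra6, of the same family, 3.57. Ly49 genes are near-identical copies, so their counts are uncertain. Klra1 had 77 UMIs against 0, at least 8.16-fold higher, and with Klra1 and Fcer1g at that bound the list's median was 2.65. Klrd1, the partner chain of NKG2 receptors, stood lower at 0.54.

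Cytotoxic genes were split in the same comparison. Of 14 listed, all tested, 4 were at least 2-fold higher and 0 lower, with a median of 0.45. Gzmb, the granzyme B gene, was at 33.9 against 1.40 CPM (229 against 3 UMIs; 3.86, interval 3.04 to 6.89), Gzma at 52.9 against 9.31 CPM (2.39), and Gzmm at 2.05. Gzmk had 1.57, while the pore-forming perforin gene Prf1 had 0.48. Of 16 genes of memory and the IL-15 response, 2 were higher (Tbx21, the T-bet gene, at 57.4 against 19.6 CPM, 1.51; Il18rap 1.25), with a median of 0.31. Among 10 S100 and annexin genes tested, 2 were higher, Lgals3 (34.9 against 2.79 CPM, 3.24) and S100a6 (1.30), with a median of 0.26.

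Few chemokine receptor and cytokine genes differed 2-fold with Ccl5. Of 8 chemokine receptors tested, 1 was at least 2-fold higher, Ccr2 (37.8 against 10.2 CPM, 1.79), and the lymph node homing receptor Ccr7 was at -0.72. Fasl, a death ligand, was the one higher among 10 cytokine genes (38.2 against 10.2 CPM, 1.80), and Lta the one lower (-1.30).

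Genes of anergy and inhibition were the lower side of Ccl5. Of 12 tested, 7 were at least 2-fold lower and 0 higher, with a median of -2.35. Wnt10a was at 3.11 against 37.7 CPM (-3.24), Nrn1 at 2.67 against 32.1 CPM (-3.18), and Ctla4 at -3.13, while Cd160 was at 0.32. Of 18 stem-like memory and naive genes, 4 were lower and 0 higher (median -0.48), among them Igfbp4 (-2.54) and Dapl1 (-1.69). Of 13 genes that follow T cell receptor signalling, 3 were lower and 0 higher, including Tnfrsf4 (-2.08) and Tnfrsf9 (-1.42). None of 12 AP-1 and immediate early, 8 exocytosis and 7 cell cycle genes differed 2-fold.

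Markers of other cell types were measured in part. B cell markers summed to 204 CPM in the Ccl5-high and 281 CPM in the Ccl5-zero cells (3 of 6 measured), and myeloid markers to 15.1 and 5.59 CPM (3 of 6 measured). Of a longer myeloid list, Cst3 was at 87.8 and 79.1 CPM and Ctss at 108 and 139 CPM. Of the summed myeloid UMIs (102 and 12), Fcer1g held 57 and 0 and Tyrobp 38 and 7. Both genes are also on the list of NK receptors and adaptors. NK cell markers, 2 of 5 measured (Eomes and Tyrobp), summed to 105 and 60.5 CPM (706 and 130 UMIs). With Tyrobp at 38 and 7 UMIs, that sum was mostly Eomes, which is also listed as a regulator of effector genes. The one CD4 T cell marker measured, of 3, was at 5.03 and 14.4 CPM. Markers of gamma delta T cells, dendritic cells and erythroid cells, and the defining genes Cd79a, Ncr1 and Foxp3, were not in the table. Their part in the results was not tested.

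Cells with a UMI of Ccl4 (365) were set against those without (2901) in the same way. Of 9037 genes tested, 21 (0.232%) were at least 2-fold higher and 70 (0.775%) at least 2-fold lower. Granzymes A and K led: 3 of 14 cytotoxic genes were higher and 0 lower (median 0.20), with Gzma at 108 against 20.4 CPM (2.35, interval 2.13 to 2.68), Gzmk at 21.7 against 6.98 CPM (1.51) and Gzmb at 1.07. These levels came from few cells. Gzma was seen in 6.61% of the 348 cells with 1 to 3 UMIs of Ccl4, 1 of 17 cells with 4 or more and 3.03% of cells with 0. Gzmk was seen in 5.46% at 1 to 3 UMIs of Ccl4 and 2.21% at 0. Of 13 NK receptors and adaptors, 2 were higher, Klrk1 (72.8 against 32.1 CPM, 1.16) and Klra7 (1.01). Of 15 genes that follow T cell receptor signalling, 3 were higher and 0 lower (median 0.49), including the nuclear receptors Nr4a1 (18 against 37 UMIs) and Nr4a3 (14.4 against 5.41 CPM, 1.27). Of 10 cytokine genes 2 were higher (median 0.71), Csf1 (1.09) and Tnfsf14 (1.01). The median over all genes was -0.01. After thinning, 172 genes were higher and 510 lower, and with a prior of 10 CPM the numbers were 3 and 0, so the counts of low genes depend on both choices.

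Cells with a UMI of Xcl1 (935) were set against those without (2331). Here 5 of 9037 genes (0.0553%) were at least 2-fold higher and 42 (0.465%) at least 2-fold lower, with a median of -0.07 over all genes. The sides of the cytotoxic list were the other way round: 0 of 14 were higher and 2 lower, namely Gzmb (3.02 against 26.5 CPM, -2.77, interval -3.99 to -2.38) and Gzma (13.1 against 40.6 CPM, -1.56), whereas Gzmm was at 0.60. Few cells held the 2 lower genes. Gzmb was seen in 1.39% of cells with and 3.00% of cells without Xcl1. Gzma was seen in 3.25% of cells with 1 to 4 UMIs of Xcl1 and 3.47% of cells with 0, at median depths of 5054 and 4134. The ratio of Gzma thus lay in the UMIs of few cells more than in its detection. Of 11 S100 and annexin genes 4 were lower and 0 higher, including Lgals3 (4.43 against 28.5 CPM, -2.44) and S100a4 (-1.52). Of 10 residency genes 2 were lower, Itgae (22.5 against 58.9 CPM, -1.35) and Itga1 (-1.08). The receptors Ccr10 (-2.60) and Cx3cr1 (1 against 55 UMIs, ratio -2.49, interval -10.16 to -2.29) were lower too. Of 12 anergy genes 3 were at least 2-fold lower and 0 higher, with Wnt10a at -1.60 and Ctla4 at -1.36. The median of that list was -0.03, with Tigit at 0.55 and Cd160 at 0.35. The Ly49 receptor Klra1 was the one NK receptor at least 2-fold higher (11.5 against 4.17 CPM, 1.27).

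Cells with many UMIs of Ccl4 or Xcl1 had different company from those with a few; these cells were chosen after their values were seen. The 17 cells with 4 or more UMIs of Ccl4, 4 of which carried at least 2 TRB sequences, came from 7 clusters. Genes induced by T cell receptor signalling were high in some of them. Nr4a3 was at 121 CPM there (in 3 of 17 cells), against 9.32 at 1 to 3 UMIs and 5.41 at 0. The transcription factor Irf4 was at 121 CPM (6 cells) against 3.49 and 3.76, and Nfkbid, an inhibitor of NF-kB, at 302 CPM (4 cells) against 25.0 and 20.7. The activation marker Cd69 was at 726 CPM (11 cells) against 315 and 280. Cells with 1 to 3 UMIs of Ccl4 were thus within 2-fold of cells without it in all 4 genes. The 12 cells with 5 or more UMIs of Xcl1 also held more Nr4a3 (157 CPM, in 5 cells, against 4.29 at 1 to 4 UMIs and 6.47 at 0), Tnfrsf9 (222 CPM, 4 cells, against 11 and 7.40) and Srgn (955 CPM, 10 cells, against 314 and 349). The inhibitory receptor Cd160 was at 209 CPM (8 cells) against 47.2 and 38.9. Only 2 cells were in both sets, and 4 of the 12 lay in cluster 4.

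Klra7 detection went with more Ccl5 and, with all UMIs, more Xcl1. Klra7 (chr6:130218605-130233322) had a UMI in 262 cells of median depth 4932, against 4380 in the rest. Ccl5 was at 4323 CPM in these and 2558 CPM in the rest (log2 ratio 0.76, interval 0.72 to 0.80), with a median of 17 against 5 UMIs per cell and 10 or more in 75.2% against 37.8% of cells. Xcl1 was at 159 against 93.5 CPM (0.77, 0.55 to 0.97) and seen in 45.8% against 27.1% of cells. Ccl4 was seen in 21.8% against 10.3% of cells, but its level of 56.6 against 44.2 CPM had an interval of the log2 ratio that reached 0 (0.36, -0.00 to 0.70). Without the top cell of each chemokine the ratio was 0.60 (0.23 to 0.95), and without barcodes with 2 or more TRB it was 0.65 (0.25 to 1.03). After thinning, 5 UMIs of Ccl4 were left in the Klra7 cells and the interval was too wide to read a direction (-0.62, -2.26 to 0.63).

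Within cluster 5, called Ly49-expressing-like from its leading genes Klra7, Klre1 and Klra6, the relation was small. Ccl5 was at 5628 CPM with and 5056 CPM without a UMI of Klra7 (0.15, 0.08 to 0.23), and Xcl1 had a ratio of 0.15 (-0.27 to 0.56). That cluster held 80 of the 262 cells. In the cells outside it the ratio of Ccl5 was 0.66 and that of Xcl1 0.77. The ratio of Ccl5 was 0.72 in cluster 1, 1.17 in cluster 2 (4938 against 2187 CPM) and 0.38 in cluster 3. For Xcl1 it was 1.07 in cluster 2 (0.50 to 1.59). In clusters 1 (0.35, -0.11 to 0.79) and 3 (0.57, -0.03 to 1.13) the interval for Xcl1 reached 0.

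Gzmb detection went with more Ccl5 and more Ccl4 and less Xcl1. Gzmb (chr14:56258838-56262260) had a UMI in 83 cells, which were shallower than the rest (median depth 3527 against 4431). Ccl5 was at 8148 against 2591 CPM (1.65, 1.60 to 1.71), with a median of 23 against 6 UMIs. Ccl4 was at 148 against 42.8 CPM (1.79, 1.35 to 2.20) and seen in 28.9% against 10.7% of cells. Xcl1 was at 65.5 against 101 CPM (-0.62, -1.28 to -0.03) and seen in 15.7% against 29.0%, and without the top cell of each chemokine its interval reached 0 (-0.57, -1.23 to 0.02).

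Cluster 7 held 37 of the 83 Gzmb cells. Within it the ratio of Ccl5 was 0.88 (17812 against 9674 CPM), or 0.69 without the cell with most Ccl5, and outside it 0.90 (4712 against 2534 CPM). For Ccl4 the interval reached 0 within cluster 7 (0.14, -0.57 to 0.85) and the ratio was 0.78 outside it (0.01 to 1.45). For Xcl1 the ratio outside it was -0.25 (-0.93 to 0.35). Only 2 cells held both Klra7 and Gzmb.

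Tcf7, the gene of a transcription factor of naive and stem-like T cells, went with slightly less Ccl5. Tcf7 (chr11:52252371-52283014, overlapped by Gm26551 and A630014C17Rik) had a UMI in 2123 cells of median depth 4674, against 3766 in the other 1143. Ccl5 was seen in 82.0% of both, with a median of 6 UMIs in both. At 1500 UMIs per cell it was seen in 67.4% (64.4 to 70.2) of cells with Tcf7 and 73.8% (71.8 to 75.7) of those without. With all UMIs its level was 2540 against 3164 CPM (-0.32, -0.35 to -0.29). Ccl4 was at 33.3 against 73.9 CPM (-1.15, -1.37 to -0.93), but the cell with 89 UMIs weighed on this, and without the top cell of each chemokine the ratio was -0.69 (-0.93 to -0.44). Also without these cells, it was -0.31 (-0.58 to -0.03) outside cluster 7. Its interval reached 0 within clusters 1, 2, 3 and 5, while the ratio was -2.56 in cluster 4 and -1.57 in cluster 7. Detection of Ccl4 was 10.9% against 11.6%. Xcl1 had a ratio of -0.10 (-0.26 to 0.06), with detection of 30.9% against 24.5% at the greater depth of the Tcf7 cells.

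Cells were also grouped by the 3 markers together. Cells with Gzmb and neither of the others (46 cells) had 11150 CPM of Ccl5 and 237 CPM of Ccl4. Those with Gzmb and Tcf7 (35 cells) had 6338 CPM of Ccl5, those with Klra7 and Tcf7 (170 cells) 4606 CPM, and those with Klra7 alone (90 cells) 3700 CPM. Cells with none of the 3 (1007) had 2804 CPM, and those with Tcf7 alone (1916) had 2240 CPM. Xcl1 was highest in cells with Klra7 alone (189 CPM), and its interval (149 to 236) overlapped that of cells with Klra7 and Tcf7 (149 CPM, 126 to 176).

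**Figure D4:**
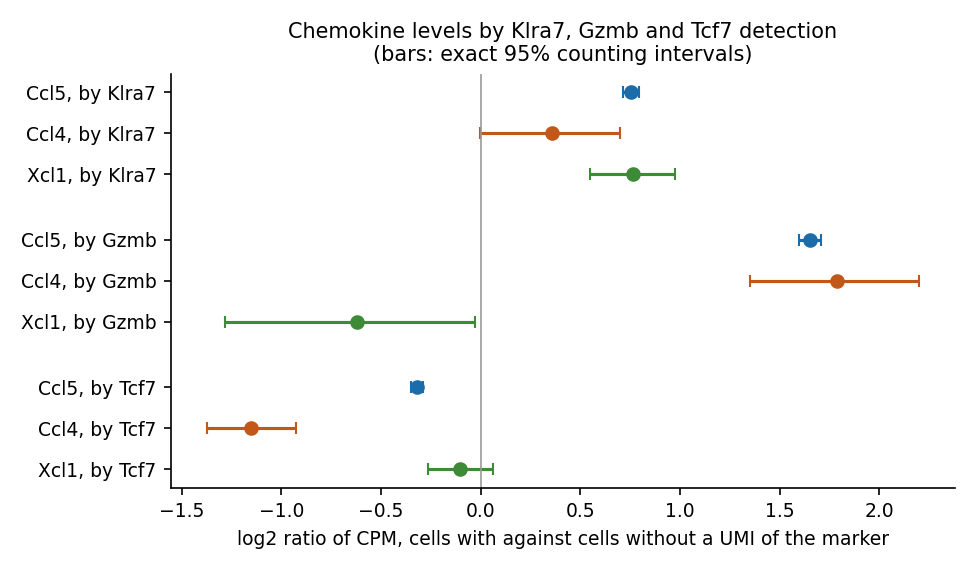
log2 ratio of CPM of each chemokine between cells with and cells without a UMI of Klra7, Gzmb or Tcf7, with exact 95% counting intervals as bars. Gzmb has the largest ratios for Ccl5 (1.65) and Ccl4 (1.79) and a negative one for Xcl1 (-0.62), while Klra7 has positive ratios for Ccl5 (0.76) and Xcl1 (0.77).

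Cells were also clustered without the 3 chemokines and the receptor segments, and the chemokines were then read in each cluster. Clusters are numbered by size, and only those whose leading genes fit a marker list carry a name. The genes that go with a chemokine took part in the clustering, so these levels are a description. Ccl5 was highest in cluster 7 at 13318 CPM (91 cells; 12239 CPM without its top cell), followed by cluster 5 (5234 CPM, 278 cells) and cluster 10 (5184 CPM, 55 cells), whose intervals overlapped. Clusters 1, 2, 3, 6, 8 and 9 lay between 1769 and 2491 CPM. Lowest was cluster 4, called anergic-like from genes such as Izumo1r, Ctla4 and Nrn1, at 1256 CPM (457 cells, 1202 to 1312). Without its top cell, cluster 8 (72 cells, median depth 895) was at 1200 CPM, close to cluster 4 without its own (1191 CPM).

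Cluster 7, led by Gzma, Lgals3, S100a4, Gzmb and Id2, was highest in Ccl4 and lowest in Xcl1. It has markers of both effector and resident cells and is left unnamed. Ccl4 was at 350 CPM there (274 to 441), or 264 CPM without its top cell, and at 25.2 to 67.8 CPM in the other clusters. Xcl1 had 4 UMIs in 4 of its 91 cells, at 19.4 CPM (5.30 to 49.8). The cluster is shallow (median depth 2014), but thinned to 1500 UMIs it still had Xcl1 in 4.41% and Ccl4 in 19.1% of cells, against 11.9% and 5.11% of all cells. Per UMI of Xcl1 it held 685 UMIs of Ccl5, against 14.0 to 61.7 in the other clusters.

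Xcl1 was highest in cluster 5, at 164 CPM (144 to 187) and in 46.0% of cells at a median depth of 4643. The other 8 clusters, all but 5 and 7, lay between 64.1 and 101 CPM. At a finer resolution a group of 43 cells, all from cluster 4 and led by Lag3, Nrn1 and Cd74, had 488 CPM of Xcl1 (392 to 600) and 362 CPM of Ccl5. Of its 89 Xcl1 UMIs 65 came from 3 cells, and without these it had 147 CPM.

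**Figure D5:**
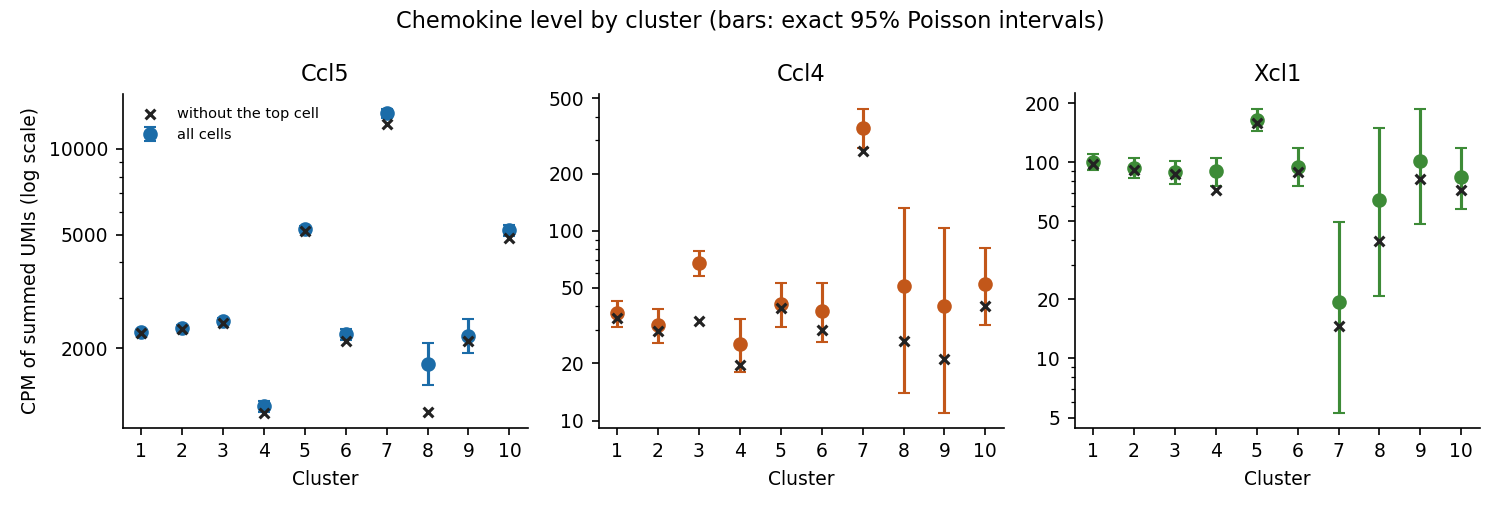
CPM of summed UMIs of Ccl5, Ccl4 and Xcl1 in clusters 1 to 10 on log axes, with exact 95% Poisson intervals; crosses leave out the cell with most UMIs of the gene in each cluster. Cluster 7 is highest for Ccl5 (13318 CPM) and Ccl4 (350 CPM) and lowest for Xcl1 (19.4 CPM), and cluster 5 is highest for Xcl1 (164 CPM).

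Receptor sequences tied the chemokines to clones, defined by identical TRB and TRA CDR3 nucleotides (the variable loop that contacts antigen). The 28 cells of 26 clones also seen in skin had 17287 CPM of Ccl5, against 2500 CPM in the 2107 cells of clones seen only in the lymph node (log2 ratio 2.79, 2.70 to 2.87; 2.50 without the cell with most Ccl5). Of the 28, 23 lay in cluster 7, and none carried a barcode common to both receptor tables. Within cluster 7, Ccl5 was at 18896 CPM in those 23 cells and 11187 CPM in 22 cells of lymph node clones (0.76, 0.60 to 0.91; 0.47 without the top cell). Ccl4 did not differ beyond counting error there (298 against 374 CPM; -0.33, -1.37 to 0.72), and Xcl1 had 1 UMI on each side.

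The CDR3 sequences of 4 receptors are given 5′ to 3′, as deposited, because they belong to the cells at the extremes and to clones whose cells could be compared.
Receptor 1, TRB: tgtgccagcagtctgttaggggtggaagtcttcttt
Receptor 1, TRA: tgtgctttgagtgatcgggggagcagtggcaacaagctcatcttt
Receptor 2, TRB: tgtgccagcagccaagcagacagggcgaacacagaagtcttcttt
Receptor 2, TRA: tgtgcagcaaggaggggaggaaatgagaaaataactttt
Receptor 3, TRB: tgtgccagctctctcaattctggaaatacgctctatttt
Receptor 3, TRA: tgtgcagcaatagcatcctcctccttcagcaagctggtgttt
Receptor 4, TRB: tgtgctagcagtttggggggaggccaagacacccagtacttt
Receptor 4, TRA: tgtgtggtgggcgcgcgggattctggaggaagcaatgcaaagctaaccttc
Receptor 1 is that of the cell with most Ccl5, in cluster 7, where 291 of 5639 UMIs (5.16%) were Ccl5 and 1 was Ccl4. It was also found in 2 skin barcodes. Receptor 2 is that of the cell with most Xcl1 (29 of 3416 UMIs), in cluster 4, with neither Ccl5 nor Ccl4, and it was not found in skin. Receptor 3 was chosen as that of the lymph node clone whose cells differed most in Ccl5 UMIs. Its 2 cells had 50 and 10 UMIs of Ccl5, in clusters 5 and 3, at 4374 and 3453 UMIs in all. Receptor 4, with 4 skin barcodes, belonged to 2 cells of cluster 7 with 15 and 8 UMIs of Ccl5 and 1 and 7 of Ccl4.

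Cells of 1 clone were compared. Among 49 clones with at least 2 cells in the gene table (99 cells), Ccl5 was seen in every cell of 35, in some cells of 12 and in no cell of 2, and in 82.8% of these cells. At 10 or more UMIs of Ccl5 the numbers were 8, 16 and 25, with 32.3% of cells. Xcl1 was seen in every cell of 1 clone, in some of 10 and in none of 38, with 12.1% of cells. Ccl4 was seen in every cell of 1, in some of 4 and in none of 44, with 6.06% of cells. Over all 2135 cells with a clone, Ccl5 was seen in 82.2%, Ccl5 at 10 or more UMIs in 40.6%, Xcl1 in 29.9% and Ccl4 in 11.4%. The counts of clones are to be read against the shares of cells, and agreement within clones beyond these was not tested. Expanded clones not found in skin (100 cells of 52 clones) had the Ccl5 level of clones seen once (0.02, -0.09 to 0.13; 2007 cells). Their Xcl1 was lower (60.3 against 105 CPM; -0.79, -1.58 to -0.11), in 15% against 31.0% of cells, at median depths of 2593 and 4606. With clones defined by the TRB alone the levels were 89.7 (69.2 to 114) and 101 CPM (94.8 to 107), a ratio of -0.17, with overlapping intervals.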

How the data were processed

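Gene values are UMI counts, which the authors deposited as whole numbers with the 4 lymph node lanes in 1 table. The deposited receptor tables give UMI counts per contig. Bowtie, RSEM and mm10 are named in the submitters' processing notes, without a version or role. The table total was 461 to 12576 UMIs per cell. CPM are counts summed over cells as a part of their total UMIs, times 1e+06. Intervals are exact (Poisson, Clopper-Pearson, or conditional for ratios) at 95%, and folds against 0 UMIs use a floor of 3 counts over the group. No test was run, since the lymph node is 1 library.

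Partner genes were ranked by Pearson's r on the log of UMIs per 10000, among genes in at least 3% of cells. The genes named are the 10 highest and 5 lowest partners, in each list the 2 highest and 2 lowest, and Klra7, Gzmb, Tcf7 and the sort genes; others were chosen after their values were seen. Some genes under this rule are not reported here. Receptor, mitochondrial and ribosomal protein genes were left out of partners. Splits used a prior of 1 CPM, at least 50 UMIs over both sides and a 2-fold limit. The 3 genes and the lists were chosen with earlier results of these data known.

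Clustering (Leiden, igraph 0.11.9) used 2000 variable genes, leaving out the 3 chemokines and receptor segments, with 30 components, 15 neighbours and a resolution of 1. Clones needed exactly 1 TRB and 1 or 2 TRA sequences. No doublet caller was run. Scripts used Python 3.11.15, numpy 2.4.6, scipy 1.17.1, pandas 2.3.3 and scikit-learn 1.9.0, and the ratios were tested on simulated data. Alternatives were thinning to 1500 UMIs, leaving out barcodes with 2 or more TRB, other thresholds, priors, filters and resolutions, and, chosen after seeing the data, leaving out the top cell of each chemokine.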

Additional observations from a re-analysis of the deposited data

How the results depend on the processing

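No paired analysis was possible because the lanes belong to 1 library and the gene table carries no lane. No direction reversed among called values. Thinning to 1500 UMIs gave Ccl5 at 0 in 28.3% and at 10 or more in 13.5%, Ccl4 in 5.11% and Xcl1 in 11.9% of cells, and a Ccl4 ratio by Ccl5 class of 1.07. With thinning, the log2 ratios by Klra7 were 0.99 (Ccl5), -0.62 (Ccl4, interval -2.26 to 0.63) and 0.38 (Xcl1, interval -0.34 to 1.03). By Gzmb they were 2.03 (Ccl5) and -2.57 (Xcl1, on 1 UMI in 42 cells with Gzmb, interval -7.88 to -0.08). By Tcf7 they were -0.16 (Ccl5), -0.32 (Ccl4, interval -0.77 to 0.12) and -0.33 (Xcl1, interval -0.64 to -0.02). Shared clones had 2.50 for Ccl5. Without barcodes with 2 or more TRB, 39.0% of cells had 10 or more Ccl5, and ratios were 0.82 (Klra7, Ccl5), 1.79 and 2.27 (Gzmb, Ccl5 and Ccl4) and -0.49 (Tcf7, Ccl4). Without the top cell of each chemokine they were 0.95 (Xcl1 by Ccl5 class), 1.52 (Gzmb, Ccl5) and -0.69 (Tcf7, Ccl4). With 2 or more UMIs of the marker they were 1.16 and -0.22 (Klra7, Ccl5 and Ccl4), 1.90, 1.26 and -3.14 (Gzmb, Ccl5, Ccl4 and Xcl1) and -0.42 (Tcf7, Ccl5). Of these, the Ccl4 ratio by Klra7 had an interval of -1.03 to 0.50. The Xcl1 ratio by Gzmb rested on 2 UMIs in 41 cells with Gzmb (-6.19 to -1.28). Totals without ribosomal protein genes and chemokines gave 1.47 (Gzmb, Ccl5), and barcodes with a contig -0.36 (Tcf7, Ccl5).

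With contigs of 3 or more UMIs, shared clones had ratios of 2.65 for Ccl5 and 1.35 for Ccl4 and expanded clones -0.33 for Ccl5; with the TRB alone, shared clones had 2.46 for Ccl5 and expanded clones -0.17 for Xcl1. Clone values without barcodes with 2 or more TRB, or with a contig only, equal the reported ones by construction. Genes 2-fold higher and lower with Ccl5 numbered 39 and 55 after thinning, 26 and 40 with a prior of 10 CPM, 116 and 195 with no filter, and 108 and 78 with the median-of-ratios shift. With Ccl4 they numbered 172 and 510 after thinning and 3 and 0 with that prior, and with Xcl1 18 and 186, and 0 and 6. Of the 10 highest Ccl4 partners 5 were the same by ranks, 3 after thinning and 5 with no filter, and 4 of Xcl1 after thinning. At resolution 0.5 the highest cluster had 7288 (Ccl5), 145 (Ccl4) and 108 CPM (Xcl1), and the lowest 61.0 (Xcl1). At 1.5 the lowest had 362 (Ccl5) and 15.1 CPM (Ccl4), and the highest 488 (Xcl1). Without each cluster's top cell, the highest were 12239 (Ccl5) and 264 CPM (Ccl4), and the lowest 1191 (Ccl5). Beyond these constructions, the cause of each shift was not tested. Depth limits the detection of Ccl4 and Xcl1, most of whose cells had 1 UMI, and the Ccl5 class of 10 or more UMIs.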
